A study of Mus musculus with 8 samples.

Results

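Ligands and receptors of the fibroblast growth factor (FGF) family were followed for H3K27me3, the trimethyl mark on histone H3 lysine 27, in mouse embryonic stem cells. The genes are 7 ligands (Fgf2, Fgf3, Fgf4, Fgf5, Fgf7, Fgf15 and Fgf20) and 3 receptors (Fgfr1, Fgfr2 and Fgfr3), 10 of the 20227 genes that could be given a name. Members are a chosen list of family genes, set with earlier results of these data known. Each was read at the interval of the deposited count table whose span best matched the RefSeq gene (overlap over union of at least 0.5, mouse build mm10). A further 7 genes of the family had an interval and are given beside them.

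Per the labels, the cells were E14tg2a stem cells stably carrying cRAF-ErT2, a RAF kinase switched on by 4-hydroxytamoxifen (4OHT), and chromatin came from 2 clones, A and B. All were first kept in serum, LIF and the GSK3 inhibitor Chir99021 at 2 µM. For the last 24 h this was exchanged for PD173074, which inhibits the FGF receptor kinases, at 250 nM beside serum and LIF. The 0 h group had no 4OHT and the 2 h group had 250 nM 4OHT for 2 h, with 1 library per clone at each time (n = 2 per time). The inhibitor was therefore present in the 0 h controls too, and no cells with free FGF receptor signalling were compared.

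FGF ligands bind receptor tyrosine kinases at the cell surface, with heparan sulphate or Klotho proteins as co-receptors, and the receptors drive the RAS-RAF-MEK-ERK cascade through adaptors such as FRS2. Mouse stem cells make FGF4 themselves, and its signal through FGFR1 and FGFR2 readies them to leave the naive state. Activated RAF enters this cascade below the receptor. H3K27me3 is placed by Polycomb repressive complex 2 and lies over many genes of later lineages that stem cells keep silent.

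Column totals ran from 70378127 to 92518605 counts over 50398 intervals of chromosomes 1 to 10, X, Y and M. Levels are given as density, the count divided by interval length in kb and by the column total in units of 1000000. The median gene stood at 0.357, and a gene was called marked at 4 times that density (1.43) or more, which 5.78% of the named genes and 5.46% of the coding genes reached. Stem cell genes were read for their level. Of 6 measured (among them Nanog, Sox2 and Klf4), 0 were marked, with a median of 0.319 times the median gene. Of the Hoxa and Hoxd genes, silent in such cells, 20 of 20 were marked, at a median of 12.6 times. These levels describe the libraries and do not test the labels of the cells, since few named genes were marked at all. A density is a mean over cells, so fewer cells with the mark and less mark per cell cannot be told apart. No input was used, so a density also holds background reads.

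H3K27me3 over the FGF genes spanned a 32.4-fold range and divided ligands and receptors alike. The low end of this range is Fgf4, on at most 36 counts per library with background included. Fgf15, Fgfr3, Fgf3 and Fgf20 were marked, 4 of 10 where 5.78% of all named genes were. Over all family genes with an interval, these 10 included, the share was lower, at 5 of 17. Fgf4, the ligand that stem cells make, and Fgfr1, their main FGF receptor, were the lowest of the 10, below the median gene over the RefSeq gene span. Over its longest interval, which adds 5119 bp before the start, Fgfr1 had 0.358, level with the median gene. The median member had 1.02 against 0.357 for the median gene.

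Fgf3 and Fgf4, neighbours on chromosome 7, lie at opposite ends of this range, and Fgfr3 and Fgfr2 differed in where along the gene the mark was dense, so the starts of these 4 genes are shown. Each sequence holds the bases from 250 before to 50 after a RefSeq start (GRCm38.p6, the assembly of mm10), 5′ to 3′ on the gene's strand, with each CpG in capitals. Fgf3 is at chr7:144838362-144838661 (plus strand), Fgf4 at chr7:144861136-144861435 (plus), Fgfr2 at chr7:130266759-130267058 (minus), and the second of the Fgfr3 starts at chr5:33722056-33722355 (plus).
Fgf3: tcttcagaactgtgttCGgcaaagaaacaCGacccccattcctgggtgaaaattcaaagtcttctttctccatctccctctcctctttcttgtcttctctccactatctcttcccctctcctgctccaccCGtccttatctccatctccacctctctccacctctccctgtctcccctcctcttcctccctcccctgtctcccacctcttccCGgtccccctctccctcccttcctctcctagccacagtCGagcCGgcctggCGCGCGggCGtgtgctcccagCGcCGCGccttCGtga
Fgf4: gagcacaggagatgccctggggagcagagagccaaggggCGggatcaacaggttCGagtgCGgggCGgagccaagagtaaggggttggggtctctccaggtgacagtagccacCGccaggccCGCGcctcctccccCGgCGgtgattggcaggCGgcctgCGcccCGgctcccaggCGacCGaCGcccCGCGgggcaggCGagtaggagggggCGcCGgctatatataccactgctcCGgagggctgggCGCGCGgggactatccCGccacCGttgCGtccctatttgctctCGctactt
Fgfr2: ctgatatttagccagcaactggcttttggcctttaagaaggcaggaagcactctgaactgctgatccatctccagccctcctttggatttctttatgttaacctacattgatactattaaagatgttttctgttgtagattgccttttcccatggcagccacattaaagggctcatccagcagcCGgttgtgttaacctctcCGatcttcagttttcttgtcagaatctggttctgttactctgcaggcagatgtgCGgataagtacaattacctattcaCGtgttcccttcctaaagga
Fgfr3: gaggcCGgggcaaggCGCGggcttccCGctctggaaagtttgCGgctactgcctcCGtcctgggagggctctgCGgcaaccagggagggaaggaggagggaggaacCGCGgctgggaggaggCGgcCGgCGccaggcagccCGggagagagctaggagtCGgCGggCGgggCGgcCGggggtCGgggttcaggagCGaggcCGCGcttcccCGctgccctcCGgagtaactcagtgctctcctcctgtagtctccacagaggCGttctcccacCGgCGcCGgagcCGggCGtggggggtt

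The Fgf4 start held 28 CpGs, a number that 14.2% of the 32851 RefSeq promoters of this length reach, and Fgf3 held 14 (36.3%). The gene with the more CpG-rich start was thus the one without the mark. Fgfr2 held 4 CpGs at the start shown, below the median promoter (7), while the Fgfr3 starts held 26 and 30. Shorter Fgfr2 intervals begin further in, at 130263987 and 130262936, and CpGs there were not counted. The table has starts for 7 of the 10 members; the others shown in it were Fgf5 with 29, Fgf2 with 24 and Fgf7 with 11 CpGs. Among coding genes, the marked share was 2.13% with 0 to 4 CpGs, 6.93% with 10 to 19 and 5.07% with 30 or more, so the share did not rise steadily with CpG number. The letters CCGGAA, the core bound by ETS factors, which ERK signalling regulates, were searched on both strands. They occurred in 14.9% of all promoters and in 1 of the 7 matched members, Fgf5.

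Fgf15, an ortholog of the bile acid hormone FGF19 that is also made in the embryonic brain (chromosome 7, 144896532 to 144900953), had the highest density. It measured 3.54 and 2.99 at 0 h and 3.36 and 2.96 at 2 h in clones A and B, a mean of 3.21 ± 0.284 (SD, n = 4) and 8.99 times the median gene. The clone A libraries were the higher at both times, and the times overlapped. A long noncoding gene, Gm26793, overlaps Fgf15 in RefSeq, and its reads cannot be told apart from those of Fgf15.

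Fgf3, which is used in inner ear and tail development (chromosome 7, 144838612 to 144843348), measured 3.22 and 2.37 at 0 h and 3.28 and 2.61 at 2 h in clones A and B. Its mean was 2.87 ± 0.452, 8.05 times the median gene, and both clone A libraries lay above both clone B libraries. Pooled over both sides, the level beside the gene was lower. In the 1754 bp that a longer interval holds around Fgf3 (144837957 to 144844447), the density was 1.24 ± 0.241, 3.48 times the median gene. Whether it fell on each side was not measured.

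Fgf20, a ligand of inner ear and kidney development on the minus strand of chromosome 8 (40279166 to 40286953), measured 1.73 and 1.60 at 0 h and 1.78 and 1.52 at 2 h. With a mean of 1.65 ± 0.119 (4.63 times the median gene), it was the marked member nearest the limit. Fgfr2 and Fgf5 were the nearest below it. Fgf5, a marker of the epiblast that stem cells turn into (chromosome 5, 98254184 to 98277033), had 1.06 and 0.966 at 0 h and 0.986 and 0.991 at 2 h, or 2.81 times the median gene. Its libraries stayed within a narrow band, and the mean was 1.00 ± 0.0426. Prdm8, a marked gene 66.7 kb before Fgf5, stood at 8.44 times the median.

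Fgf2, the basic FGF widely used in cell culture (chromosome 3, 37348477 to 37404893), had 0.674 and 0.683 at 0 h and 0.686 and 0.667 at 2 h, 1.90 times the median gene. It varied least among the members (coefficient of variation 1.28%). The mark was uneven around it. Fgf2os, an opposite-strand transcript that shares 2557 bp with the 5′ end of Fgf2, measured 1.31, 1.15, 1.34 and 1.12 in the same order, a mean of 1.23 and 3.44 times the median gene. Fgf7, the keratinocyte growth factor (chromosome 2, 126034658 to 126091185), had 0.429 and 0.412 at 0 h and 0.402 and 0.400 at 2 h. That is 1.15 times the median gene, close to 0.972 for Fam227b, the gene on the other strand that contains it. These 2 values are not independent, since the Fam227b interval holds all 56528 bp of Fgf7.

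Fgf4 (chromosome 7, 144861386 to 144865243) was the lowest, with 0.110 and 0.115 at 0 h and 0.0728 and 0.0975 at 2 h. Its mean of 0.0989 ± 0.0189 was 0.277 times the median gene, at percentile 13.6 of all named genes. These values rest on 30, 36, 26 and 32 counts, with a counting error of 18.0% per library, so small differences in Fgf4 were not detectable at this depth. The density over Fgf15 was 26.0 to 46.1 times that over Fgf4 across the 4 libraries, and over Fgf3 20.7 to 45.1 times. No input was used, so how much of the Fgf4 density is background is not known, and these ratios depend on it.

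**Figure D1:**
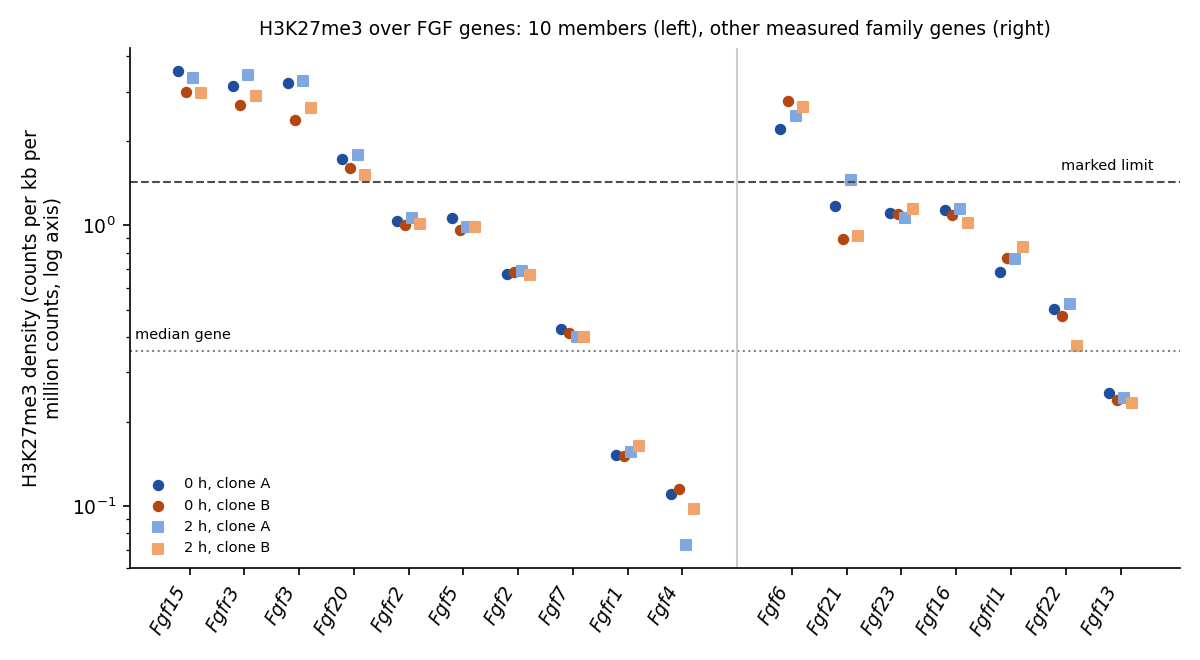
H3K27me3 density (counts per kb and 1000000 column counts, log axis) in each of the 4 libraries for the 10 FGF genes and the 7 other family genes with an interval. Points are single libraries by time and clone, and lines give the median gene (0.357) and the marked limit (1.43). Fgf15, Fgfr3, Fgf3 and Fgf20 lie above the limit in every library, and Fgf4 and the Fgfr1 interval used lie below the median gene in every library.

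The order of the 10 genes was mostly the same in each library. Fgf3 above Fgf20, Fgf20 above Fgfr2, Fgf5 above Fgf2, Fgf2 above Fgf7, Fgf7 above Fgfr1 and Fgfr1 above Fgf4 held in 4 of 4 libraries. Fgf15 and Fgfr3, Fgfr3 and Fgf3, and Fgfr2 and Fgf5 were in order in 3 of 4, and their ranges overlapped, so these neighbours did not differ beyond their spread. Of coding genes up to 16 kb, 9.86% were marked, against 1.74% of longer ones, with median densities of 0.326 and 0.253. The limit of 16 kb was set after the values were seen, just above the longest marked member, and the part of length in the order was not tested. The 4 marked members are 4.42 to 15.3 kb long, the longer Fgf5, Fgf2, Fgf7, Fgfr1 and Fgfr2 were all unmarked, and Fgf4, at 3.86 kb, was unmarked although short.

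Fgf3, Fgf4 and Fgf15 lie in a row on chromosome 7, and the mark left out the gene in the middle. Fgf4 begins 18.0 kb after Fgf3 ends, and Fgf15 begins 31.3 kb after Fgf4 ends. An interval with no name of its own, 0.724 kb before Fgf15 (144894121 to 144895807, minus strand), held 2.66 ± 0.348, 7.47 times the median gene, so the dense stretch began before the Fgf15 start. After Fgf15 the level dropped: Gm39119, a long noncoding gene 3.58 kb on, had 1.92 times the median gene. LTO1, 14.1 kb beyond Fgf15, had 0.292 times, near the level of Fgf4. Ccnd1, the cyclin D1 gene 29.0 kb beyond Fgf15, had 1.50 times, and Ano1, 86.6 kb before Fgf3, had 2.51 times. Fgf3 and Fgf15 were the 2 marked genes with a name in the row, with the unmarked Fgf4 between them. The stretches between the genes were not measured.

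**Figure D2:**
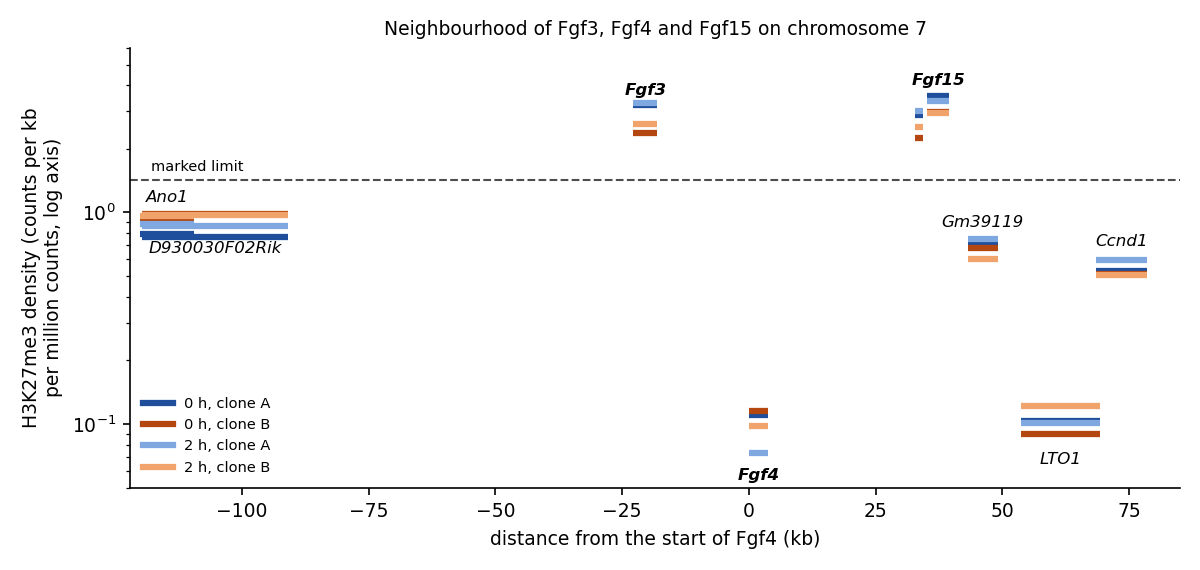
H3K27me3 density (counts per kb and 1000000 column counts, log axis) for intervals around Fgf3, Fgf4 and Fgf15, against distance from the Fgf4 start in kb. Each horizontal bar spans an interval in 1 library, coloured by time and clone, and the dashed line is the marked limit (1.43). Ano1 runs past the left edge, and the short bars without a name are the interval 0.724 kb before Fgf15. Fgf3 and Fgf15 stand at 8.05 and 8.99 times the median gene, with Fgf4 between them at 0.277 times.

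The 3 receptors, which share ligands and pass the signal to the same adaptors, had unlike levels. Fgfr3, a receptor of cartilage and bone growth (chromosome 5, 33721724 to 33737068), measured 3.14 and 2.69 at 0 h and 3.44 and 2.88 at 2 h, 8.51 times the median gene. Fgfr2, a receptor of epithelia and the primitive endoderm on the minus strand of chromosome 7 (130162451 to 130266808), had 1.04 and 1.01 at 0 h and 1.06 and 1.01 at 2 h, or 2.89 times. Fgfr1 (chromosome 8, 25518759 to 25575718) had 0.153 and 0.151 at 0 h and 0.156 and 0.164 at 2 h, 0.437 times the median gene. The libraries of the 3 receptors did not overlap. Fgfr3 was 17.6 to 22.1 times as dense as Fgfr1 and 2.67 to 3.23 times as dense as Fgfr2 across the 4 libraries. Against the longest Fgfr1 interval (25513623 to 25575714), which measured 0.359 and 0.346 at 0 h and 0.368 and 0.361 at 2 h, Fgfr3 was 7.76 to 9.35 times as dense. The receptors kept their order with either interval.

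Receptors that were not marked over the gene as a whole had dense stretches just before or after their RefSeq starts. Several transcript intervals of a receptor share an end, and the count of the part that only the longer one holds is the difference of their counts. Before the RefSeq start of Fgfr1, a part of 5119 bp (25513623 to 25518741) held 2.65 and 2.51 at 0 h and 2.73 and 2.56 at 2 h. Its mean was 2.61 ± 0.0948. That is 7.32 times the median gene and 15.6 to 17.5 times the density of the Fgfr1 interval beside it. This part lies outside the interval used for Fgfr1, but it is the 5′ part of the longest Fgfr1 interval. The mark ended near the start: the next 975 bp held 0.339, on 18 to 32 counts, and the last 11.4 kb held 0.0958. Over the RefSeq span Fgfr1 was therefore among the lowest genes of the family, while the 5′ part of its longest interval was above the marked limit in all 4 libraries.

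Fgfr2 had its dense stretch inside the gene. The first 2957 bp (130263988 to 130266944) held 2.58 and 2.48 at 0 h and 2.76 and 2.96 at 2 h, a mean of 2.69. The next 1051 bp (130262937 to 130263987) held 5.41, 4.44, 4.95 and 4.46 in the same order, a mean of 4.81 and 13.5 times the median gene. Shorter Fgfr2 intervals have their 5′ ends on either side of it, at 130263987 and 130262936. The other 100 kb of the gene had 0.945, and this stretch was 4.76 to 5.70 times as dense across the 4 libraries. The CpG-poor start printed above lies only partly within the first 2957 bp, and its own density was not measured.

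Fgfr3 was dense throughout. Its first 582 bp held 2.89, the next 1399 bp (33722306 to 33723704) 4.25 and 3.77 at 0 h and 4.98 and 4.42 at 2 h, and the rest 2.91. The second stretch was 1.40 to 1.61 times the rest, a far smaller contrast than in Fgfr2, and it opens at the second Fgfr3 start shown above. Letm1, a minus-strand gene whose nearest interval lies 2.61 kb beyond the end of Fgfr3, had 0.622 times the median gene as a whole. How reads that touch both intervals were counted is not given in the sources, and the effect on these differences was not tested. Parts were taken where ends were shared within 20 bp and at least 500 bp remained, a rule set after seeing the data.

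**Figure D3:**
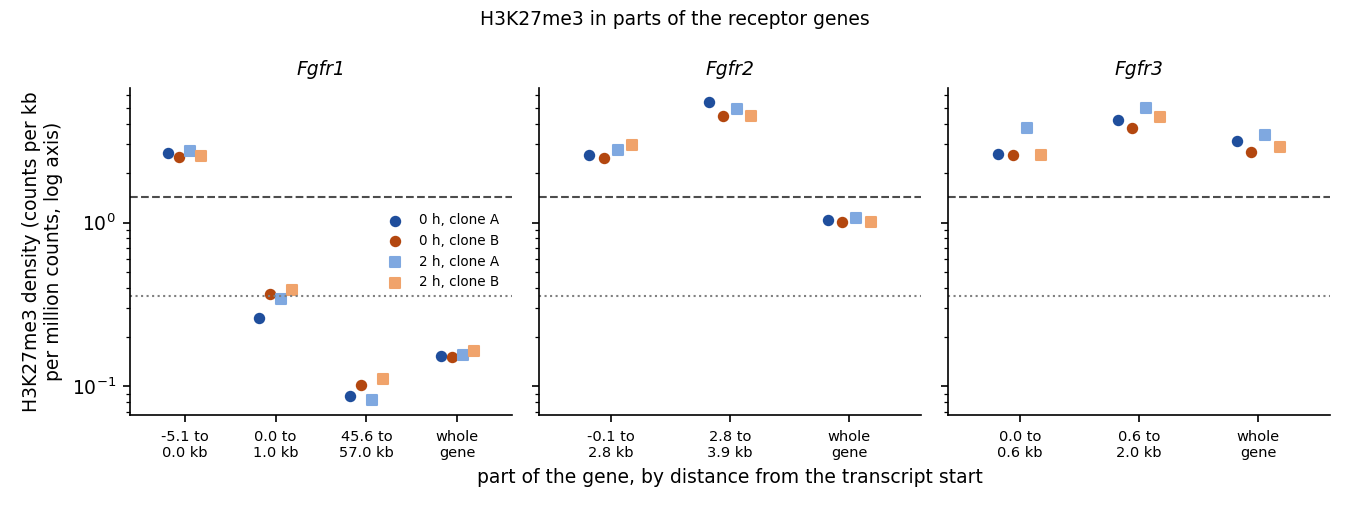
H3K27me3 density (counts per kb and 1000000 column counts, log axis) in parts of Fgfr1, Fgfr2 and Fgfr3, named by distance in kb from the RefSeq start of the gene, with negative values before it, and over the whole gene. Points are single libraries by time and clone, the dashed line is the marked limit (1.43) and the dotted line the median gene (0.357). The part before the Fgfr1 start has a mean of 2.61, and the Fgfr2 and Fgfr3 parts just after the first have 4.81 and 4.36.

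Most other genes of the pathway were not marked, as for named genes at large, of which 5.78% were marked. In lists this short, 0 marked does not set a list apart from that share. Of 6 other ligands with an interval, 1 was marked: Fgf6, a ligand of skeletal muscle, at 7.06 times the median gene. The lowest was Fgf13, which acts inside the cell, at 0.677 times, and the median of the 6 was 3.09 times. Fgfrl1, a receptor without a kinase domain, had 2.13 times. Of 10 co-receptors and binding proteins 0 were marked, with Sdc4, a heparan sulphate carrier, highest at 3.45 times and Gpc4 lowest at 0.428 times. Of 6 adaptors and effectors 0 were marked, and all were below the median gene, from Plcg1 at 0.594 times to Shc1 at 0.246 times. Of 4 ERK targets and feedback genes 0 were marked, with Dusp4, a MAP kinase phosphatase, at 3.41 times and Spred1, an inhibitor of RAS signalling, at 0.448 times. Fgfr1 and Fgf4 had densities within or near the range of the adaptors, which cells of many kinds use.

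Outside the family, the genes of like length with the nearest densities over the 4 libraries were found by the root of the summed squared log2 differences. For Fgf15 they were Gm32957 (0.0905) and Mab21l1 (0.114), an eye development gene. For Fgf4 they were 4930548H24Rik (0.117) and Gm16206 (0.210). For Fgfr3 they were 6530402F18Rik (0.0783) and Gata5os (0.103), and for Fgfr1 Cep83 (0.0294), a centriole gene, and Lnx2 (0.0511). With 4 libraries this likeness is mostly of level.

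The study asked what 2 h of RAF-ERK activation does, and no change in H3K27me3 was detected over any FGF gene. In the edgeR quasi-likelihood fit over 50037 intervals, 0% were called higher and 0% lower at 2 h, and 0 of the 10 members passed (all 10 were tested, each with an adjusted p of 1.00). Before adjustment 188 intervals had p under 0.05 by edgeR and 2 by DESeq2, which also called 0. Both fits leave clone out. In the edgeR fit with clone as a block the number was 2078, so it depends on the design of the fit. Fgfr3 had the highest estimate, a log2 change of 0.12 (SE 0.13, 95% interval -0.20 to 0.43), higher at 2 h in 2 of 2 clones. Fgf3 had 0.08 (SE 0.19, -0.37 to 0.52), Fgf15 -0.05 (SE 0.14, -0.38 to 0.28) and Fgf20 -0.01 (SE 0.13, -0.33 to 0.30). At these 4 marked genes, the 95% intervals of this fit, which leaves clone out, together reach from -0.38 to 0.52. Clone as a block narrowed them, to -0.06 to 0.22 for Fgf3, -0.19 to 0.09 for Fgf15 and -0.16 to 0.12 for Fgf20 (Fgfr3 is given below).

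Fgf4 had the lowest estimate, -0.41 (SE 0.26, -1.04 to 0.21), lower at 2 h in 2 of 2 clones, on at most 36 counts per library. The other 5 members lay between -0.07 (Fgf7) and 0.07 (Fgfr1). The median member had -0.01, against 0.00 for all named genes and 0.03 for marked ones. The libraries of the 2 times did not overlap for Fgfr1 (2 h above, as for 10.6% of intervals) or for Fgf7 and Fgf4 (2 h below, as for 8.20%). These counts are near what the whole table gives. With clone as a block, which removes the steady difference between clones, Fgfr3 had 0.11 (0.01 to 0.22, unadjusted p = 0.0316 by edgeR) and an adjusted p of 1.00, and 0 intervals were called.

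**Figure D4:**
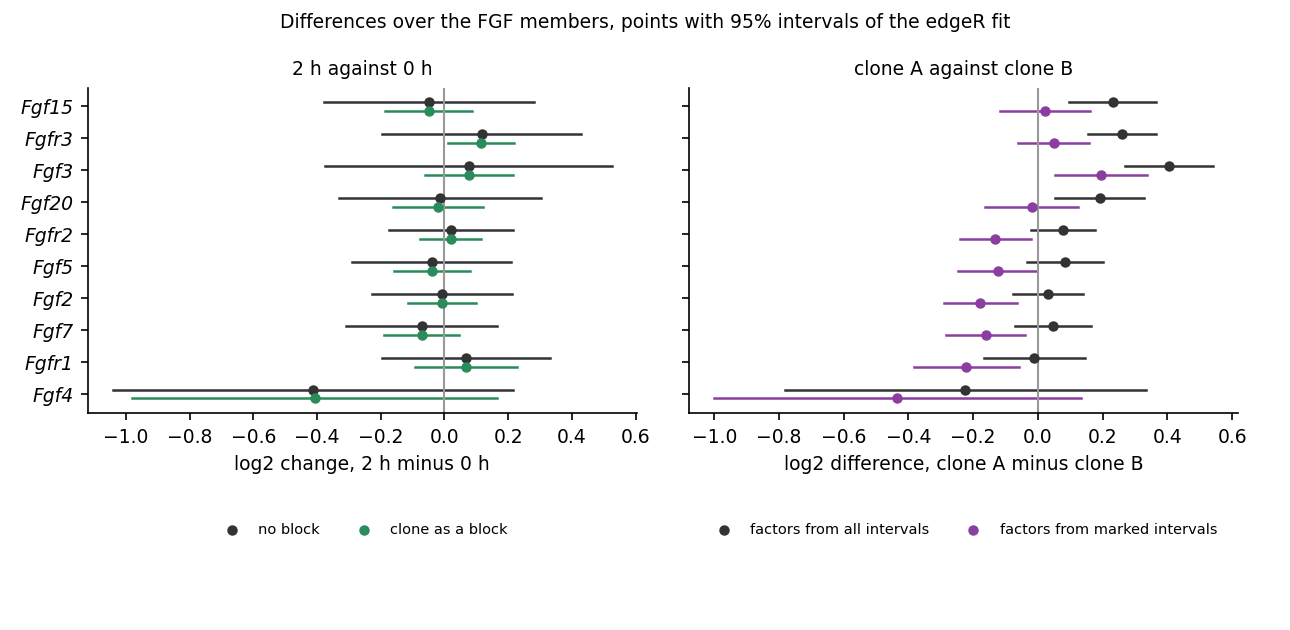
Log2 differences of the 10 FGF genes from the edgeR fits: 2 h minus 0 h (left, without and with clone as a block) and clone A minus clone B (right, with factors from all and from marked intervals). Points are estimates and bars 95% intervals. Without the block every 95% interval for 2 h minus 0 h includes 0, and with it that of Fgfr3 lies just above (0.01 to 0.22). Between clones, Fgf3 stays above 0 under both scalings, whereas Fgf2, Fgf5, Fgf7, Fgf20 and Fgfr2 change sign between them.

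Whether the 2 clones differed at the marked FGF genes depends on how the libraries are scaled. Only Fgf3 was called higher in clone A with factors from all and from marked intervals. With factors from all intervals, 4 of the 10 members passed the test as higher in clone A and 0 as lower, where 17.3% of intervals were higher and 10.3% lower. They are the 4 marked ones. Fgf3 had a log2 difference of 0.40 (SE 0.07, edgeR adjusted p = 9.62e-08), Fgfr3 0.26 (SE 0.05, 1.66e-05), Fgf15 0.23 (SE 0.07, 0.00425) and Fgf20 0.19 (SE 0.07, 0.0272), each higher in clone A at both times. Of all marked genes 52.4% were called higher in clone A, so under this scaling it is a feature of marked genes at large in these libraries. The libraries of the clones did not overlap for 6 members, all with clone A above (Fgfr3, Fgf5, Fgfr2, Fgf3, Fgf15 and Fgf20, as for 32.0% of intervals). For 0 members did clone A lie below clone B throughout (28.7% of intervals).

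With factors from marked intervals only, a scaling added after seeing the data, the median interval moved from 0.00 to -0.21. This scaling brings the typical marked interval near 0 by design, and the median marked gene moved from 0.19 to -0.015. It therefore cannot show whether marked genes as a group differ between the clones. Now 1 member was called higher in clone A and 4 lower, where 5.04% of intervals were higher and 43.7% lower. Fgf3 stayed higher, at 0.20 (SE 0.07, edgeR adjusted p = 0.0171). Fgf2 (-0.18), Fgf7 (-0.16), Fgfr1 (-0.22) and Fgfr2 (-0.13) were called lower, while Fgf15 (0.02), Fgfr3 (0.05), Fgf20 (-0.02) and Fgf5 (-0.12) did not pass. Which scaling is right was not tested. The Fgf15 call also ended without the 2 h library of clone B (0.18, adjusted p = 0.153), and that of Fgf20 without the same library (0.11, 0.452), without the 2 h library of clone A (0.16, 0.156) without the 0 h library of clone B (0.24, 0.0555) and with column totals as the only scaling (0.17, 0.0521). DESeq2 called Fgf3, Fgfr3 and Fgf15 but not Fgf20 (adjusted p = 0.151). The 2 libraries of a clone are its 2 times, so no replicate within a time was available.

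Other genes of the pathway differed between the clones in both directions. Among ligands, Fgf21, a liver hormone, was called higher in clone A (0.57), and it did not pass with factors from marked intervals (0.35). Fgf6 was called lower (-0.19, and -0.40 with those factors). Of the co-receptors and binding proteins, Klb (0.31), Gpc1 (0.26) and Ncam1 (0.13) were called higher and Fgfbp1 (-0.69), Flrt3 (-0.61) and Sdc4 (-0.27) lower. With factors from marked intervals the first 3 no longer passed, Ncam1 turned to -0.08, and the last 3 stayed lower at -0.90, -0.82 and -0.48. Of the ERK targets, Spry1, an inhibitor of receptor tyrosine kinase signalling, and Spred1 were called lower (-0.31 and -0.26), also with those factors (-0.52 and -0.47). Of 6 adaptors 0 were called. DESeq2 kept the calls of Klb, Gpc1, Fgfbp1, Flrt3 and Sdc4, and did not call Fgf6 (adjusted p = 0.0520), Fgf21 (0.0566), Ncam1 (0.0880), Spry1 (0.146) or Spred1 (0.0512). With factors from marked intervals further genes were called lower, in the direction of the shifted median: Gab1 (-0.26), Ptpn11 (-0.34) and Cbl (-0.22) among adaptors, Dusp4 (-0.34), Fgf23 (-0.24), Fgfrl1 (-0.34) and Kl (-0.15).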

How the data were processed

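H3K27me3 ChIP-seq in 4 libraries (2 clones at 0 h and at 2 h) was analysed, and 4 input libraries were not analysed here. Per the file headers, the authors' deposited values are read counts over transcript intervals, introns included, in whole numbers. Bowtie2, bedtools and mm10 are named in the submitters' processing notes, and the read filters and counting rules were not given in the sources used here. A further 12 unnamed per-library columns were left out. Intervals that overlap another make up 84.8%, so 1 read can enter several counts, and a column's sum does not give its depth. Counts are of reads without molecular identifiers.

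Intervals were named by RefSeq genes of GRCm38.p6 where overlap over union reached 0.5 and led the next gene by 0.2, which named 86.9%. Starts were raised by 1 base to be printed. Promoter sequences came from RefSeq (GRCm38.p6).

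Tests were edgeR 4.0.16 quasi-likelihood fits (TMM factors, filterByExpr) over 50037 intervals, with Benjamini-Hochberg adjustment read at 0.05, in R 4.3.3, and figures and summaries used Python 3.11.15. They were tested on simulated data. In the comparison of times the simulated counts held no clone difference, so that test does not cover this feature of the data. The alternatives included DESeq2 1.42.0, other scaling factors and filters, 1 interval per gene, clone or time as a term, and leaving out each library. Factors from marked intervals and the rule for gene parts were added after seeing the data. Each clone was sampled at 0 h and at 2 h, so clone letters pair the libraries. As a check, deviations from the time means were correlated within clones (r = 0.519 over 50037 intervals, 0.687 over 42201 with a mean count of at least 100; intervals are not independent replicates). The clones come from 1 line and nothing says that libraries of a time are separate cultures beyond the clone, so the spread behind each p-value is that of these samples and may be technical.

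The members, the lists and the marked limit were chosen with earlier results of these data known. Named were all members, of each other list the highest, the lowest and every called gene, neighbours within 100 kb (those of the results, others unprinted), and the 2 genes of like length nearest to the densest and least dense ligand and receptor.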

Additional observations from a re-analysis of the deposited data

Results flagged for a closer look

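The change in H3K27me3 over 2 h had opposite signs in the 2 clones for 4 of the 10 FGF genes, as it did for 50.6% of all named genes. The difference between the clones was not tested, since each clone has 1 library per time. For Fgf20 the log2 change in clone A exceeded that in clone B by 0.164 (0.06 in clone A and -0.10 in clone B). For Fgf2 the difference was 0.106 (0.05 and -0.06) and for Fgfr2 0.0737 (0.06 and -0.02). For Fgf5 it was -0.0986 (-0.09 and 0.01).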

How the results depend on the processing

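Each time has 2 libraries, and Fgf4 at most 36 counts in any of them, which limits what could be detected. The number of FGF genes called between times was 0 under every alternative run, including clone as a replicate block (paired fit, 0 members and 0 intervals called), and the block changed no call between times. With time as a term in the clone fit, Gpc3 was gained as higher in clone A (log2 difference 0.13, edgeR adjusted p = 0.0463, where it had just missed the threshold). Leaving out 1 library gave 0 to 1 intervals changed, the 1 being a lower call without the 2 h library of clone A. The 4 marked members stayed 4 with another overlap, another scaling or a library left out, and were 6 at 2 times and 3 at 8 times the median.

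The log2 change over 2 h turned sign with a library left out for Fgf2 (-0.049 to 0.010), Fgf3 (-0.135 to 0.310), Fgf5 (-0.112 to 0.028), Fgf15 (-0.171 to 0.075), Fgf20 (-0.157 to 0.091), Fgfr2 (-0.037 to 0.053) and Fgfr3 (-0.038 to 0.235). Fgfr2 also turned, to -0.018, with factors from marked intervals, with and without the replicate block.

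Between clones, 13765 intervals were called, against 8694 by DESeq2, 5291 with 1 interval per gene (fewer tested), 24388 with factors from marked intervals and 21268 with those factors and time as a term. Leaving out 1 library gave 9476 to 11838 intervals and 2 to 4 FGF genes. Those factors turned the difference of Fgf2 to -0.18, Fgf5 to -0.12, Fgf7 to -0.16, Fgf20 to -0.019 and Fgfr2 to -0.13, and with time as a term these were -0.18, -0.13, -0.16, -0.018 and -0.13. A library left out turned Fgf2 (-0.028 to 0.054), Fgf4 (-0.51 to 0.068), Fgf7 (-0.015 to 0.085) and Fgfr1 (-0.059 to 0.012). The cause was not tested.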
